A study of Mus musculus with 20 samples.

Results

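The interaction of alkali with oxalate asks whether alkali therapy moved a gene by a different amount in mice given oxalate than in control mice. For each gene it is the alkali difference in oxalate libraries minus the alkali difference in control libraries, on the log2 scale, so a positive value means that alkali moved the gene further upward, or less far downward, under oxalate. The contrast uses all 20 of the 20 libraries of the series, in 4 groups of 5 taken from the sample titles. These were untreated control mice (Control), control mice on alkali therapy (Control_late), untreated oxalate mice (Oxalate) and oxalate mice on alkali therapy (Oxalate_late). The series describes the alkali as bicarbonate and the disease as a crystal nephropathy, which is kidney damage by deposited crystals. Strain, age, dose, tissue and duration were not given in the sources used here, nor whether each library came from its own animal, so p-values measure the spread between these libraries. Both alkali groups carry the word "late" in their names without an explanation, so alkali and whatever that word stands for cannot be told apart.

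The kidney answers an acid load in the proximal tubule and in the intercalated cells of the collecting duct. Proximal tubule cells take up glutamine, strip ammonia from it and turn the carbon skeleton into glucose, which releases bicarbonate, while type A intercalated cells pump protons into the urine and return bicarbonate to the blood. Oxalate binds calcium and precipitates in the tubule lumen, where crystals injure the epithelium and attract macrophages. A 2 by 2 design of this kind asks whether a base load acts on these pathways in the same way in a healthy and in an injured kidney.

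Transcripts of Kap and Slc34a1 (proximal tubule), Umod (thick ascending limb), Slc12a3 (distal convoluted tubule) and Aqp2 (collecting duct) were found in every library, so genes of the main kidney segments were present. Library totals ran from 25547840 to 39550689 counts, and 15430 of 25700 genes had counts high enough to test. Adipoq, a fat cell gene, was above 1 CPM (counts scaled to an equal library total by TMM) in 6 libraries: control 9 and 26, control on alkali 1 and 4, oxalate 32 and oxalate on alkali 33, where numbers are the replicate numbers of the titles. Values given for each library follow the order of these numbers. The summed level of the 29 macrophage and monocyte markers was 281 to 419 CPM in untreated controls, 313 to 422 in controls on alkali, 1776 to 7227 in untreated oxalate libraries and 652 to 2474 in oxalate libraries on alkali. In such bulk libraries, fewer cells of a type and less RNA per cell cannot be told apart, and the part of cell makeup in the results below was not tested.

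No gene passed the test of the interaction. With edgeR's quasi-likelihood test at a Benjamini-Hochberg adjusted p of 0.05, 0 of 15430 genes (0%) were called in either direction, and the smallest adjusted p was 0.0907, for F2. At an unadjusted p under 0.05 there were 1429 genes (9.26%), 635 with a higher interaction (4.12%) and 794 with a lower one (5.15%). These are the shares over all genes for the list counts at that p given below. Over all genes, 7892 interactions lay above 0 and 7538 below it, to be set beside list counts above or below 0. With libraries scaled by total counts instead of TMM the split was 339 and 1077. DESeq2's Wald test called 26 genes, 12 higher and 14 lower, which is 0.267% of the 9741 genes to which it gave an adjusted p. Of the genes described below, DESeq2 called Slc4a1, Ces1g, Ppp1r1b, Nccrp1, Podn, Tlcd1 and Kdr higher. It called Eif1a, Gsta2, Zfand2a, Pdxk, Prmt2 and Aldh1a1 lower. Weighting single libraries in limma voom called 1 gene, Gsta2, and leaving out the 6 libraries with Adipoq called 1, Nccrp1. Leaving out control on alkali library 4 gave 3 edgeR calls (F2, Nccrp1 and Eif1a, each with an adjusted p of 0.0498), and leaving out oxalate library 3 gave 1 (F2, adjusted p = 0.0202).

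The 2 alkali comparisons that make up the interaction gave different counts of calls, but that is not a test of their difference. Within oxalate libraries, 630 genes were called (4.08%), 271 higher on alkali (1.76%) and 359 lower (2.33%), and at an unadjusted p under 0.05 there were 3156 (20.5%), 1421 higher (9.21%) and 1735 lower (11.2%). Within control libraries, 0 genes were called by edgeR, with 389 at an unadjusted p under 0.05 (2.52%; 199 or 1.29% higher, 190 or 1.23% lower) and 3 by DESeq2 (F2, Creb3l3 and Atp12a). Leaving out control 9 or control on alkali 1 or oxalate 12 gave 1 control-arm call each, Gm2115 in the first case and Atp12a in the others. The oxalate-arm count rested on single libraries: it was 185 without oxalate 12, 349 without oxalate 3, 415 without oxalate 40, 204 without oxalate on alkali 30 and 379 without oxalate on alkali 8, and rose to 1160 without oxalate 32 and 974 without oxalate on alkali 33. With weights set per group in limma voom, which lets the oxalate groups have their own spread, it was 42. All 5 oxalate libraries on alkali lay above or below all 5 untreated oxalate libraries for 543 genes (3.52%; 295 or 1.91% above, 248 or 1.61% below), against 158 genes (1.02%) for the control pair.

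The precision of the contrast sets how an absence of calls can be read. An interaction draws on the error of 4 groups, so its median SE over genes was 0.200, against 0.141 for alkali in oxalate and 0.142 for alkali in control, all on the log2 scale. The 95% interval reached a median of 0.416 to either side of the value, and for 11304 genes (73.3%) the whole interval lay within a 2-fold change either way. For the other genes the interval reached past a 2-fold change in at least 1 direction, and 647 genes had a fitted interaction of 2-fold or more. Libraries of a group differed more under oxalate: the median SD of log2 CPM within a group was 0.18 in untreated controls, 0.14 in controls on alkali, 0.242 in untreated oxalate and 0.263 in oxalate on alkali. The median size of the alkali difference over genes was 0.156 under oxalate and 0.0742 in controls. Across the 15430 genes, which are not independent, the 2 differences correlated with Pearson's r = 0.0655 and Spearman's rho = 0.101.

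**Figure D1:**
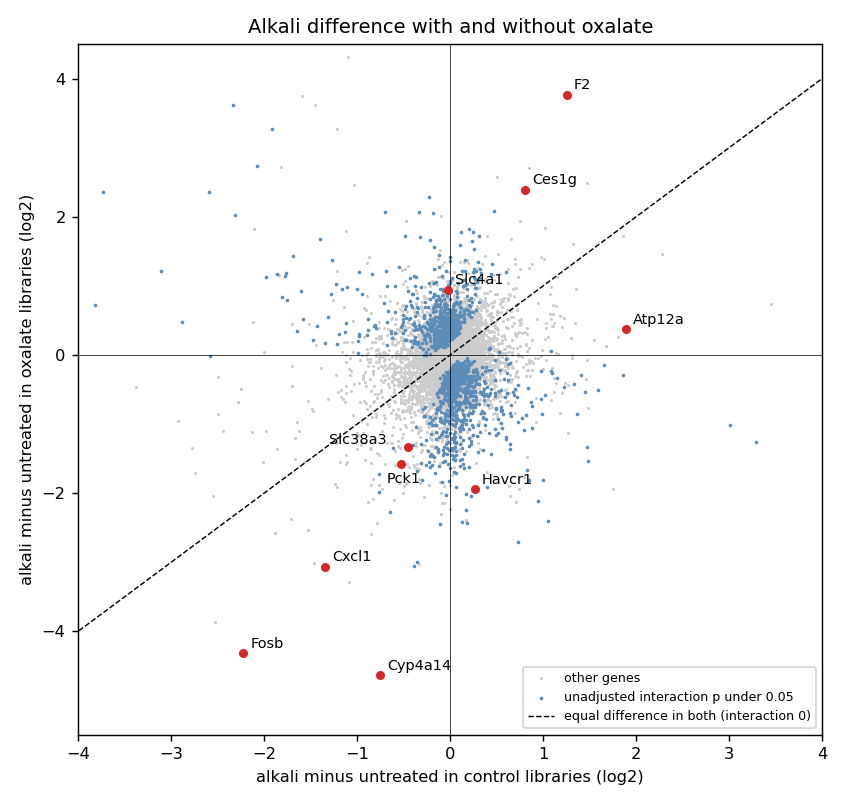
Alkali minus untreated (log2) in control libraries (x axis) and in oxalate libraries (y axis) for the genes tested, with the 1429 genes at an unadjusted interaction p under 0.05 in blue and 10 named genes in red; 3 genes lie outside the axes. The dashed line marks an equal difference in both, an interaction of 0, and the cloud is wider along the oxalate axis.

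Of the genes for handling ammonia, Slc38a3 and Pck1 had negative interactions whose 95% intervals lay below 0, while Glud1 lay near 0. Other genes of glucose production or glutamine transport did not all share this direction: G6pc was at 0.46, Fbp1 at -0.12 and Slc1a5 at 0.25. Slc38a3, which brings glutamine into proximal tubule cells, had 36.6, 36.8, 60.3, 52.8 and 42.1 CPM in untreated control libraries, 36.97, 41.3, 32.8, 25.8 and 30.05 CPM in control libraries on alkali, 61.3, 87.4, 43.7, 71.9 and 45.8 CPM in untreated oxalate libraries and 33.99, 17.95, 19.1, 25.2 and 26.3 CPM in oxalate libraries on alkali. Oxalate libraries on alkali all lay below the untreated oxalate libraries, and the control groups overlapped. The alkali difference was -1.34 ± 0.21 (edgeR adjusted p = 0.0031) under oxalate and -0.46 ± 0.20 (edgeR adjusted p = 1) in controls, and the interaction was -0.88 ± 0.29 (95% interval -1.48 to -0.29, edgeR adjusted p = 0.474). The fitted difference was negative in both arms, and the larger one under oxalate did not pass the test against the one in controls.

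Pck1, the enzyme that commits the glutamine skeleton to glucose, had 2559.8, 2393, 2652, 1853 and 1724 CPM in untreated control libraries, 1847, 1148, 1887, 1574 and 1290.0 CPM in control libraries on alkali, 2257, 1798, 2179.8, 2469 and 859.6 CPM in untreated oxalate libraries and 1048, 481, 431, 672 and 582 CPM in oxalate libraries on alkali. One untreated oxalate library, replicate 40, lay within the range of the oxalate libraries on alkali, so these groups overlapped. Its alkali difference was -1.57 ± 0.26 (edgeR adjusted p = 0.0041) under oxalate and -0.53 ± 0.26 (edgeR adjusted p = 1) in controls, with an interaction of -1.04 ± 0.37 (95% interval -1.80 to -0.28, edgeR adjusted p = 0.474). Glud1, glutamate dehydrogenase, had an interaction of -0.03 ± 0.16 (95% interval -0.36 to 0.30, edgeR adjusted p = 0.97), and on the linear CPM scale its difference of differences was positive (4.1 CPM). This interval leaves out a 2-fold interaction in either direction. Over the whole list of ammonia production and acid-base transport genes, 4 of 35 members had an unadjusted p under 0.05 for a higher interaction and 3 for a lower one, and the median interaction was 0.06 (0.006 over all genes; for the list -0.01 with total-count scaling, and -0.01 to 0.18 with single libraries left out).

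**Figure D2:**
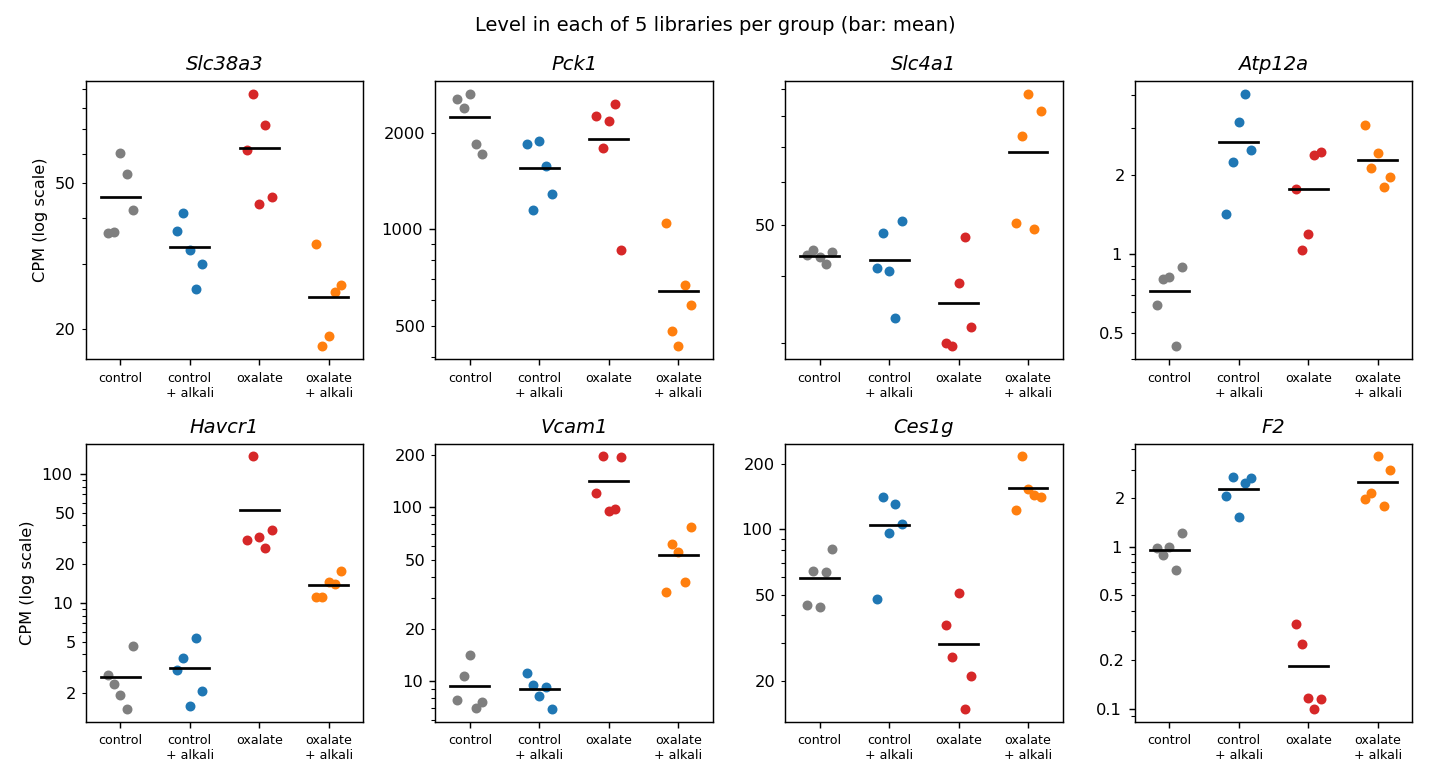
CPM (log axis) of 8 genes in each of the 5 libraries of a group, with a bar at the group mean. The oxalate groups do not overlap for Slc38a3, Slc4a1, Havcr1, Vcam1, Ces1g and F2, and the control groups do not overlap for Atp12a and F2.

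Bicarbonate exit from type A intercalated cells runs through Slc4a1, an anion exchanger that red blood cells also carry. Its levels were 43.8, 44.7, 43.5, 42.2 and 44.4 CPM in untreated control libraries, 41.5, 48.2, 40.9, 33.4 and 50.7 CPM in control libraries on alkali, 29.99, 29.6, 38.8, 47.5 and 32.1 CPM in untreated oxalate libraries and 50.4, 73.4, 88.02, 49.2 and 81.6 CPM in oxalate libraries on alkali. All untreated oxalate libraries lay below all oxalate libraries on alkali, and the control groups overlapped. The alkali difference was 0.95 ± 0.16 (edgeR adjusted p = 0.00424) under oxalate and -0.03 ± 0.16 (edgeR adjusted p = 1) in controls, and the interaction was 0.97 ± 0.22 (95% interval 0.50 to 1.44, edgeR adjusted p = 0.363). The red blood cell genes Hbb-bs and Alas2 had medians of 57.3 and 3.55 CPM in untreated oxalate libraries and 59.2 and 3.21 CPM in oxalate libraries on alkali.

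Atp12a, the non-gastric proton-potassium pump (chr14:56365068-56388550, plus strand, GRCm38), had the opposite pattern. It had 0.641, 0.804, 0.82, 0.445 and 0.892 CPM in untreated control libraries and 1.42, 2.24, 3.16, 4.06 and 2.47 CPM in control libraries on alkali, with no overlap (86 genes, 0.557%, were higher in all 5), and 1.76, 1.03, 1.19, 2.38 and 2.45 CPM in untreated oxalate libraries and 3.1, 2.12, 2.42, 1.79 and 1.96 CPM in oxalate libraries on alkali, which overlapped. The alkali difference was 1.89 ± 0.30 (edgeR adjusted p = 0.0642) in controls and 0.37 ± 0.28 (edgeR adjusted p = 0.491) under oxalate. The interaction was therefore negative, -1.52 ± 0.41 (95% interval -2.38 to -0.67, edgeR adjusted p = 0.39). In controls its adjusted p was 0.0144 without control on alkali 1 and 0.0394 without oxalate 12. Slc26a4, the chloride-bicarbonate exchanger that secretes base from type B intercalated cells, had an interaction of 0.09 ± 0.19 (95% interval -0.30 to 0.47, edgeR adjusted p = 0.917), an interval that leaves out a 2-fold interaction in either direction.

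Intercalated cell genes as a list had a median interaction of 0.23, with 16 of 20 above 0. At an unadjusted p under 0.05, 0 of 20 members had a lower interaction and 5 a higher one (25%, against 9.26% over all genes). Among them were Aqp6 (0.72 ± 0.25), a water and anion channel of vesicles in these cells, and Oxgr1 (0.41 ± 0.19), the oxoglutarate receptor of type B cells. Slc9a3, the proximal sodium-proton exchanger, had an interaction of 0.44 ± 0.20 (95% interval 0.02 to 0.85, edgeR adjusted p = 0.516), with an alkali difference of 0.36 ± 0.14 under oxalate and -0.08 ± 0.14 in controls.

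Markers of injured tubules were higher in oxalate libraries and, in part, lower with alkali there, while alkali left little difference in controls. Havcr1, the injury receptor KIM-1, had 31.1, 137, 32.6, 26.8 and 36.8 CPM in untreated oxalate libraries and 11.1, 11.1, 14.7, 14.1 and 17.8 CPM in oxalate libraries on alkali, against 2.79, 2.37, 1.92, 1.51 and 4.66 CPM in untreated control libraries and 3.01, 3.77, 1.6, 5.35 and 2.07 CPM in control libraries on alkali. Oxalate libraries on alkali all lay below the untreated ones. Oxalate library 12, at 137 CPM, stood well above the other 4. The alkali difference was -1.95 ± 0.41 (edgeR adjusted p = 0.014) under oxalate and 0.26 ± 0.46 (edgeR adjusted p = 1) in controls, and without oxalate 12 the former was -1.21 (adjusted p = 0.0374). Its interaction was -2.21 ± 0.61 (95% interval -3.49 to -0.93, edgeR adjusted p = 0.416), and -1.47 without oxalate 12.

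Vcam1, an adhesion molecule of endothelium and of injured tubule cells, had 121, 197, 95.4, 97.6 and 196 CPM in untreated oxalate libraries and 32.7, 61.6, 55.6, 37.1 and 77.5 CPM in oxalate libraries on alkali, against 7.8, 10.7, 14.1, 7.02 and 7.63 CPM in untreated control libraries and 11.2, 9.49, 8.26, 9.23 and 6.92 CPM in control libraries on alkali. No oxalate library on alkali reached the level of an untreated one, and the control groups overlapped. Alkali differed by -1.42 ± 0.25 (edgeR adjusted p = 0.00522) under oxalate and -0.07 ± 0.27 (edgeR adjusted p = 1) in controls, an interaction of -1.35 ± 0.37 (95% interval -2.11 to -0.59, edgeR adjusted p = 0.39). Set out the other way, the oxalate difference was 3.90 without alkali and 2.55 with it, so the level on alkali was still above that of controls. Sox9, a transcription factor of regenerating tubules, had an interaction of -1.97 ± 0.62 (95% interval -3.26 to -0.68, edgeR adjusted p = 0.474).

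The other injury genes of the panel had smaller values or wider errors. Lcn2, an iron-binding protein secreted by damaged tubules, had -0.72 ± 0.57 (95% interval -1.91 to 0.48, edgeR adjusted p = 0.732), or -0.42 without control on alkali 27, and Spp1, osteopontin, which binds crystals and overlaps Gm42793, had -0.76 ± 0.30 (95% interval -1.38 to -0.13, edgeR adjusted p = 0.478). Cd44, its receptor, had -1.39 ± 0.44. Slc7a11, the cystine importer, a panel gene that is not on the tubular injury list, had -1.87 ± 0.70 (95% interval -3.32 to -0.41, edgeR adjusted p = 0.478), or -1.17 without oxalate 40. It had low counts in controls, 5 to 16 per library with or without alkali. Of the 28 tubular injury genes tested, 0 had an unadjusted p under 0.05 for a higher interaction and 14 for a lower one (50%, against 9.26% over all genes), 27 lay below 0, and the median was -0.68. For alkali under oxalate, 10 of the 28 were called lower and 0 higher, against 359 (2.33%) and 271 (1.76%) of all genes. Its median alkali difference was -0.57 under oxalate and 0.03 in controls. The summed macrophage marker level given above differed between the same groups, and its part in these values was not tested.

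**Figure D3:**
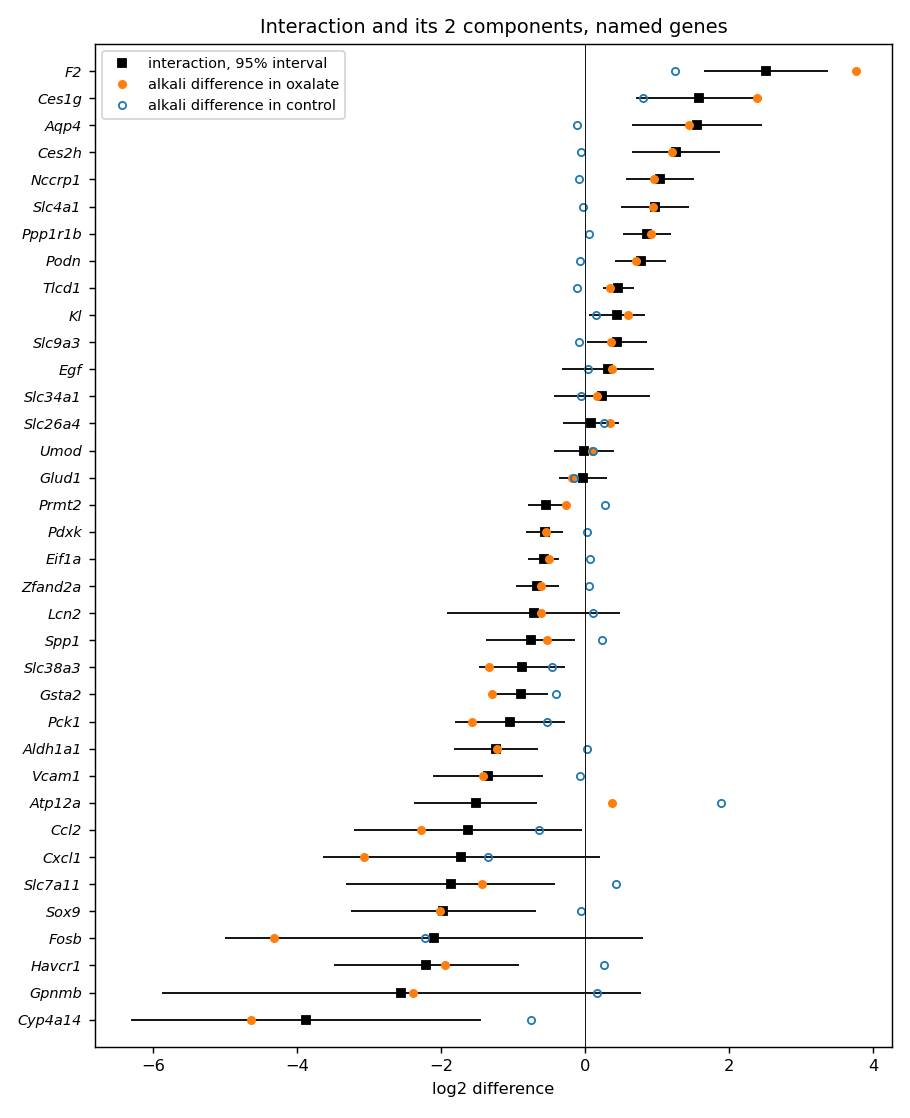
Interaction (black squares, log2, with 95% intervals) of 36 named genes, with the alkali difference in oxalate (orange) and in control libraries (open blue). Intervals of F2, Ces1g and Slc4a1 lie above 0 and those of Havcr1, Vcam1 and Cyp4a14 below it. None passed the adjusted threshold in edgeR, while DESeq2 called Slc4a1 and Ces1g among these.

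Macrophage and monocyte genes had the most negative median interaction of the lists with 10 or more members, -1.13, with 28 of 29 below 0. At an unadjusted p under 0.05, 0 of 29 members had a higher interaction and 14 a lower one (48.3%, against 9.26% over all genes). The median was -0.74 without oxalate 40. Lgals3, galectin-3, had an interaction of -1.31 ± 0.37, Tyrobp, a signalling adaptor of myeloid receptors, -1.38 ± 0.48, and Lyz2, lysozyme, -1.49 ± 0.54. Cd14, the lipopolysaccharide co-receptor, was at -1.26 ± 0.42. Gpnmb, a glycoprotein of lipid-loaded and crystal-handling macrophages, had 435, 499.6, 92.3, 255 and 1235 CPM in untreated oxalate libraries and 9.92, 111, 175, 40.6 and 144 CPM in oxalate libraries on alkali. These groups overlapped and spanned a wide range, and the interaction was -2.56 ± 1.59 (95% interval -5.88 to 0.77, edgeR adjusted p = 0.646).

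Cytokines and chemokines had a median of -1.09 (-1.48 to -0.73 with single libraries left out), with 29 of 33 below 0. At an unadjusted p under 0.05 there were 12 of 33 (36.4%, against 9.26% over all genes), all lower. Ccl2, the chief monocyte attractant, had 30.7, 41.9, 10.4, 11.9 and 13.4 CPM in untreated oxalate libraries and 2.62, 4.62, 5.14, 4.24 and 5.7 CPM in oxalate libraries on alkali, against 0.603, 0.677, 3.78, 0.376 and 0.649 CPM in untreated control libraries and 1.05, 0.99, 0.409, 1.01 and 0.47 CPM in control libraries on alkali. The oxalate groups differed by -2.28 ± 0.49 (edgeR adjusted p = 0.0149), a call lost without oxalate 12 (adjusted p = 0.0567), and the control groups by -0.65 ± 0.59 (edgeR adjusted p = 1). Its interaction was -1.63 ± 0.76 (95% interval -3.21 to -0.05, edgeR adjusted p = 0.529), and -2.73 without control 19, the library that stood above the other untreated controls. Cxcl1, a neutrophil attractant, had -1.72 ± 0.92 (95% interval -3.65 to 0.21, edgeR adjusted p = 0.593), and -0.90 without oxalate 12. Ccl3 was at -2.82 ± 0.87 and the interferon-induced Cxcl10 at -1.53 ± 0.42, a gene that overlaps Art3. Ccl3 had low counts in controls, with at most 0.188 CPM untreated and 0.366 CPM on alkali. Its alkali difference under oxalate was -1.82 (edgeR adjusted p = 0.0362). That call was lost without oxalate 12 (adjusted p = 0.0667) and without several other single libraries.

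Interferon response genes had a median of -0.34 (24 of 25 below 0, 5 lower and 1 higher at an unadjusted p under 0.05), complement genes -0.61 and MHC class II genes -0.45, with 1 of 21 and 0 of 10 at that p. The genes at that p made up 24%, 4.76% and 0% of these lists, against 9.26% over all genes. Without oxalate on alkali 2 the interferon median was -0.21 and the MHC class II median -0.29. The interferon median was also -0.19 without control on alkali 4 and -0.58 without oxalate on alkali 33, and the complement median was -0.38 without oxalate 40. Genes of the matrix and its fibroblasts had a median of -0.59, with 32 of 35 below 0 but only 4 lower and 1 higher at that p, and a median of -0.29 without oxalate 40. The one higher was Col6a6 (1.61 ± 0.42), a collagen VI chain that overlaps Gm38314. Neutrophil genes, of which 6 were abundant enough to test, had a median of -0.57 and none at that p, with -0.24 without oxalate 40 and -0.98 without control 19. T and NK cell genes had a median of -0.30, which turned positive (0.23) with weights per library in limma voom and ran from -0.49 to -0.15 with single libraries left out.

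Immediate early genes, the fast transcriptional answer to a stimulus, all lay below 0: 27 of 27, with a median of -1.06. With single libraries left out, that median ran from -1.68 (without control 19) to -0.75. At an unadjusted p under 0.05, 11 of these genes were lower (40.7%, against 9.26% over all genes). Their median alkali difference was -1.37 under oxalate and -0.13 in controls. Their mean log2 CPM was uneven among untreated oxalate libraries. It was 5.65 in library 3, 5.88 in 12, 3.70 in 32, 3.67 in 39 and 4.41 in 40. In oxalate libraries on alkali it was 2.66 to 3.62. Fosb had 1.85, 0.804, 12.6, 0.616 and 0.608 CPM in untreated control libraries, 1.23, 0.293, 0.596, 1.04 and 0.376 CPM in control libraries on alkali, 29.96, 21.5, 1.14, 1.06 and 3.11 CPM in untreated oxalate libraries and 0.31, 0.407, 0.678, 0.53 and 0.884 CPM in oxalate libraries on alkali. Its levels were scattered over a wide range within each untreated group, the interaction was -2.10 ± 1.39 (95% interval -5.00 to 0.81, edgeR adjusted p = 0.667), or -3.87 without control 19 and -1.34 without oxalate 3, and the alkali difference was -4.32 ± 1.03 (edgeR adjusted p = 0.0258) under oxalate, a call lost without any of 6 libraries, and -2.23 ± 0.99 (edgeR adjusted p = 1) in controls.

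Fos had an interaction of -2.42 ± 0.89, Klf6 -1.06 ± 0.34, and Ccn1, a matricellular protein induced by YAP, -1.15 ± 0.33; all 5 oxalate libraries on alkali lay below the untreated ones for Klf6 and Ccn1. Heat shock and chaperone genes had a median of -0.39 (18 of 21 below 0, 6 lower at that p), with Hspa1b, an inducible HSP70, at -2.64 ± 0.92 and Sdf2l1, an endoplasmic reticulum chaperone component, at -0.89 ± 0.25. Among untreated controls, Hspa1b was at 165 CPM in library 19 and at most 56.99 CPM in the others. Among controls on alkali, it was at 168 CPM in library 27 and at most 40.03 CPM in the others. Its control-arm difference therefore leaned on single libraries, and its interaction without either of them is not given here. Hspa1a and Hspa1b are near-identical copies, so their counts are uncertain. Such genes also respond to how tissue is collected, and the part of collection in these values was not tested.

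**Figure D4:**
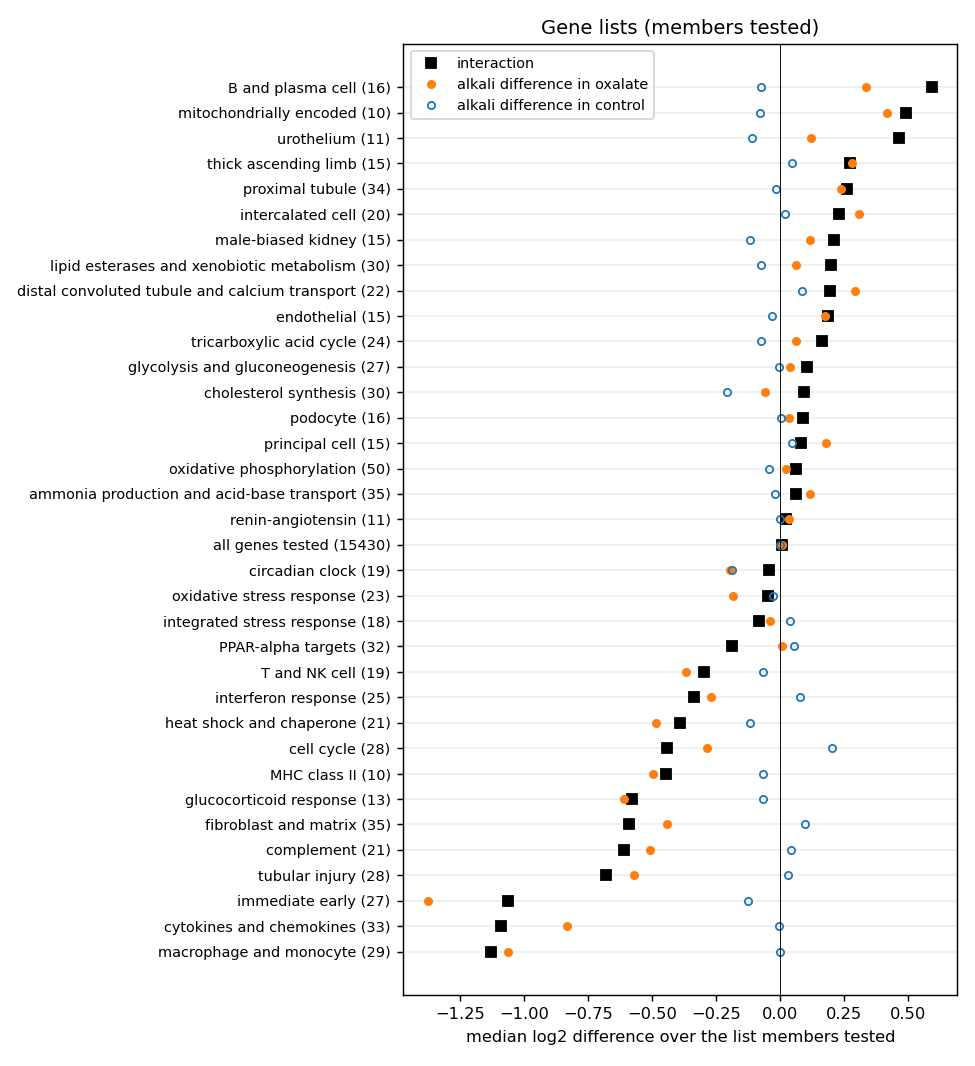
Median log2 difference over the tested members of each gene list with at least 10 members, for the interaction (black), alkali in oxalate (orange) and alkali in control (open blue), with all 15430 genes for reference. Macrophage, cytokine and immediate early lists lie at or below -1.06, while nephron segment lists lie between 0.08 and 0.27.

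Genes of the nephron segments leaned the other way by small amounts. Proximal tubule genes had a median interaction of 0.26 with 30 of 34 above 0, but only 1 (2.94%) had an unadjusted p under 0.05, below the 9.26% of all genes. That median rested on single libraries: it was 0.05 without oxalate on alkali 2, 0.12 without oxalate 40 and 0.40 without oxalate 32. Slc34a1, the main phosphate carrier, was at 0.23 ± 0.32 (95% interval -0.43 to 0.90, edgeR adjusted p = 0.86), and at 0.07 to 0.38 with single libraries left out. Thick ascending limb genes had a median of 0.27 and 5 of 15 higher at that p, while its most abundant product, Umod (uromodulin), lay at -0.01 ± 0.20 (95% interval -0.43 to 0.40, edgeR adjusted p = 0.989). Distal convoluted tubule and calcium transport genes had a median of 0.19 and 6 of 22 higher, among them Wnk4 (0.59 ± 0.21), a kinase that controls sodium chloride transport. Egf, made in these segments, was at 0.32 ± 0.31 (95% interval -0.32 to 0.96, edgeR adjusted p = 0.783), with 0.20 without oxalate 12 and 0.13 without oxalate on alkali 2.

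Kl, the klotho co-receptor for FGF23, had 578, 423, 668, 613 and 397 CPM in untreated oxalate libraries and 943, 813, 764, 783 and 734 CPM in oxalate libraries on alkali, against 886, 878, 818, 703 and 907 CPM in untreated control libraries and 943, 979.9, 886, 956 and 876 CPM in control libraries on alkali. The oxalate groups differed by 0.59 ± 0.13 (edgeR adjusted p = 0.0176), lost without oxalate 12 (adjusted p = 0.0612), and the interaction was 0.45 ± 0.19 (95% interval 0.06 to 0.83, edgeR adjusted p = 0.487). Aqp4, a basolateral water channel, had 4.93, 6.26, 10.2, 10.9 and 7.75 CPM in untreated oxalate libraries and 30.1, 15.3, 13.8, 14.04 and 35.5 CPM in oxalate libraries on alkali, against 23.5, 55.1, 33.2, 67.9 and 32.6 CPM in untreated control libraries and 34.02, 46.4, 44.3, 39.02 and 32.02 CPM in control libraries on alkali. It differed by 1.44 ± 0.31 (edgeR adjusted p = 0.0161) under oxalate, again lost without oxalate 12 (adjusted p = 0.0552), and by -0.12 ± 0.30 (edgeR adjusted p = 1) in controls. Its interaction was 1.56 ± 0.43 (95% interval 0.66 to 2.46, edgeR adjusted p = 0.409). Endothelial genes had a median of 0.19. Kdr, the main VEGF receptor, at 0.43 ± 0.10, was the only 1 of 15 with an unadjusted p under 0.05 (6.67%, against 9.26% over all genes). Podocyte genes had a median of 0.09 (-0.01 with total-count scaling, and 0.03 to 0.14 with single libraries left out), with 1 of 16 at that p (6.25%). Principal cell genes had a median of 0.08, which was -0.04 without the libraries with Adipoq and ran from -0.05 without oxalate on alkali 8 to 0.18 without oxalate on alkali 2.

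**Figure D5:**
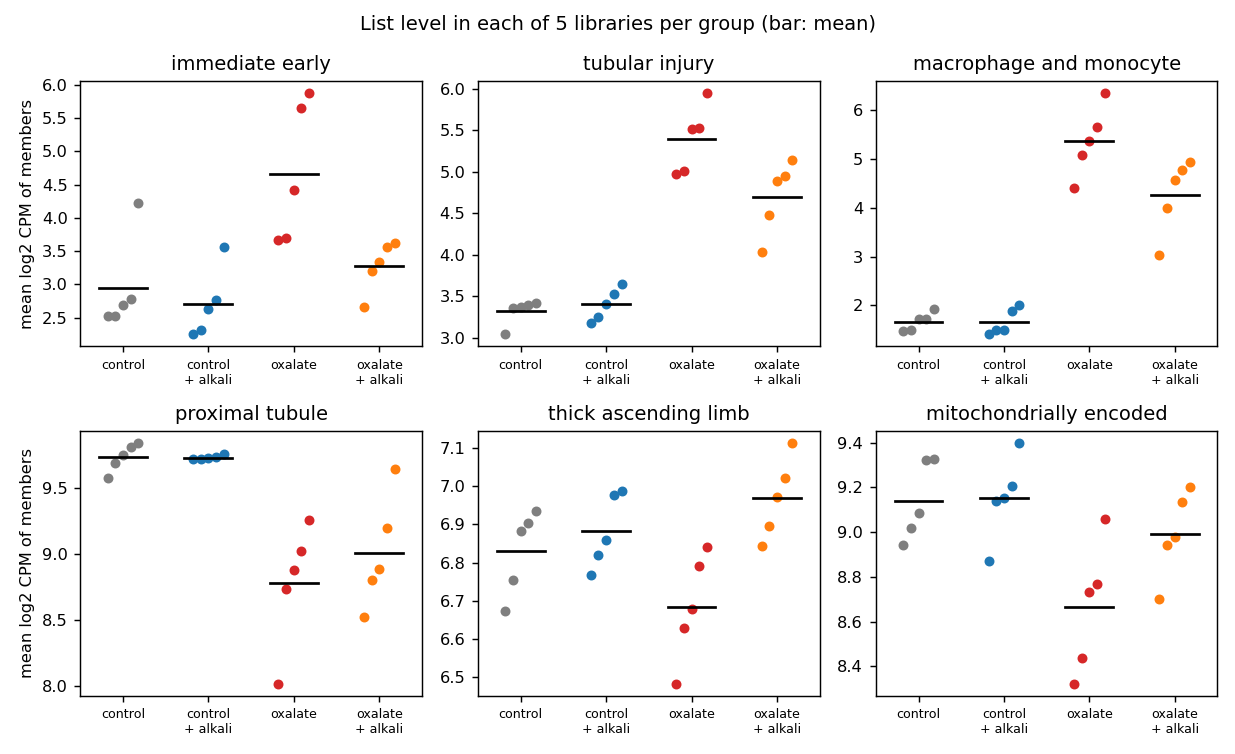
Mean log2 CPM over the tested members of 6 gene lists (y axis) in each library, by group of 5, with a bar at the group mean. The macrophage and monocyte mean was 4.41 to 6.35 in untreated oxalate libraries and 3.04 to 4.93 in oxalate libraries on alkali, against 1.47 to 1.93 in untreated controls, and the proximal tubule mean was 8.02 to 9.26, 8.52 to 9.65 and 9.58 to 9.85 in these groups.

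Transcripts of the mitochondrial genome had a median interaction of 0.49, with 9 of 10 above 0 and 5 higher at an unadjusted p under 0.05. mt-Nd1, a complex I subunit, was at 0.63 ± 0.24. These transcripts are cut from shared precursors and are not separate measurements. The 50 nuclear genes of oxidative phosphorylation did not share this: 0 of 50 had an unadjusted p under 0.05 and their median was 0.06, or -0.02 with total-count scaling and -0.02 to 0.14 with single libraries left out. Tricarboxylic acid cycle genes had a median of 0.16, with 22 of 24 above 0 and 1 at that p, and 0.07 to 0.25 with single libraries left out.

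Genes of lipid and xenobiotic metabolism went in both directions. Cyp4a14, a fatty acid omega-hydroxylase (chr4:115486200-115496142, minus strand, GRCm38), had 46.9, 23.4, 164, 10.9 and 11.6 CPM in untreated control libraries, 10.97, 10.2, 32.8, 87.6 and 10.5 CPM in control libraries on alkali, 349, 339.5, 82.02, 729 and 76.2 CPM in untreated oxalate libraries and 8.3, 17.5, 20.3, 10.2 and 6.55 CPM in oxalate libraries on alkali. Levels in untreated oxalate libraries ranged widely and all 5 lay above the oxalate libraries on alkali. Alkali differed by -4.64 ± 0.91 (edgeR adjusted p = 0.0107) under oxalate and by -0.76 ± 0.80 (edgeR adjusted p = 1) in controls, and the interaction of -3.88 ± 1.16 (95% interval -6.31 to -1.45, edgeR adjusted p = 0.471) had a wide error. Its relative Cyp4a10 was at -1.34 ± 0.43. PPAR-alpha targets as a list had a median of -0.19, with 2 of 32 higher and 7 lower at an unadjusted p under 0.05, and ran from -0.30 to -0.11 with single libraries left out. One of the higher members, Ucp3, a mitochondrial carrier of muscle and brown fat (6.09 ± 1.94), was at 7.29 CPM in control 26 and 4.39 CPM in oxalate on alkali 33, the libraries with the most Adipoq, and at 0.45 CPM or less in the other 18.

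Ces1g, a carboxylesterase that hydrolyses lipid esters (chr8:93302369-93337308, minus strand, GRCm38), had 44.9, 64.5, 43.6, 63.7 and 80.9 CPM in untreated control libraries, 47.6, 141, 95.7, 131 and 106 CPM in control libraries on alkali, 36.01, 25.6, 50.9, 14.8 and 21.04 CPM in untreated oxalate libraries and 123, 217, 154, 144 and 140.4 CPM in oxalate libraries on alkali. All oxalate libraries on alkali exceeded all untreated ones, and also the untreated controls. The alkali difference was 2.39 ± 0.31 (edgeR adjusted p = 0.000766) under oxalate and 0.81 ± 0.29 (edgeR adjusted p = 1) in controls, an interaction of 1.58 ± 0.42 (95% interval 0.71 to 2.45, edgeR adjusted p = 0.39). Its neighbour Ces1c, with low counts (0.95 CPM or less in every library), was at 1.61 ± 0.51. Ces2h was at 1.26 ± 0.30 (95% interval 0.65 to 1.88, edgeR adjusted p = 0.372). Gsta2, a glutathione transferase, went the other way at -0.89 ± 0.18 (95% interval -1.27 to -0.51, edgeR adjusted p = 0.32), with alkali differences of -1.30 ± 0.13 (edgeR adjusted p = 2.34e-05) under oxalate and -0.40 ± 0.13 in controls. The list of lipid esterases and xenobiotic enzymes had a median of 0.20, with 2 of 30 higher and 2 lower at an unadjusted p under 0.05, with a median of -0.08 without oxalate on alkali 2, 0.06 without oxalate 40, 0.34 without oxalate 32 and -0.03 under voom weights per sample. Esterases and glutathione transferases are families of close copies, so reads may be split among members. Aldh1a1, which makes retinoic acid, was at -1.24 ± 0.28 (95% interval -1.83 to -0.66, edgeR adjusted p = 0.36).

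Genes with the smallest p-values of the interaction were mostly of modest size. F2, prothrombin, had 26, 21, 28, 21 and 30 counts in untreated controls, 57, 74, 41, 71 and 85 in controls on alkali, 10, 9, 4, 3 and 5 in untreated oxalate libraries and 57, 79, 139, 71 and 91 in oxalate libraries on alkali. It lay at chr2:91625320-91636414, minus strand (GRCm38), had a mean log2 CPM of 0.63, under the limit set for naming, and was chosen after its values were seen. Alkali groups lay above untreated groups in both arms. The alkali difference was 3.77 ± 0.32 (edgeR adjusted p = 2.11e-06) under oxalate and 1.25 ± 0.27 (edgeR adjusted p = 0.614) in controls, an interaction of 2.52 ± 0.41 (95% interval 1.65 to 3.38, edgeR adjusted p = 0.0907). The oxalate difference was -2.39 without alkali and 0.13 with it.

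Ppp1r1b, the phosphatase inhibitor DARPP-32, had 25.03, 19.04, 20.6, 24.8 and 22.5 CPM in untreated oxalate libraries and 44.9, 35.8, 47.5, 43.1 and 40.4 CPM in oxalate libraries on alkali, against 51.9, 44.1, 41.2, 35.8 and 31.3 CPM in untreated control libraries and 45.6, 46.3, 41.5, 37.8 and 41.7 CPM in control libraries on alkali. The oxalate groups did not overlap and differed by 0.92 ± 0.12 (edgeR adjusted p = 0.000642), while the control groups overlapped. Its interaction was 0.86 ± 0.16 (95% interval 0.52 to 1.20, edgeR adjusted p = 0.181). Other positive interactions with a small p were those of Nccrp1 (1.04 ± 0.23), which overlaps Samd4b, of Podn (0.77 ± 0.17), a matrix proteoglycan that overlaps Scp2, and of Tlcd1 (0.46 ± 0.10), a membrane lipid regulator that overlaps Rpl23a. The strand setting of the counting was not given in the sources used here, so reads of overlapping genes cannot be assigned with certainty.

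On the negative side stood Eif1a, a translation initiation factor, at -0.58 ± 0.10 (95% interval -0.79 to -0.36, edgeR adjusted p = 0.124). Its levels were 59.7, 66.9, 63.7, 61.7 and 64.8 CPM in untreated oxalate libraries and 45.2, 47.4, 45.1, 42.9 and 42.5 CPM in oxalate libraries on alkali, without overlap, against 47.5, 53.3, 47.97, 42.6 and 45.8 CPM in untreated control libraries and 49.3, 43.7, 54.3, 55.6 and 46.4 CPM in control libraries on alkali, with overlap. Zfand2a, a stress-induced zinc finger protein, was at -0.66 ± 0.14, Pdxk, pyridoxal kinase, at -0.56 ± 0.12, and Prmt2, an arginine methyltransferase, at -0.54 ± 0.12. Prmt2 differed from the others in its components, though neither passed the adjusted threshold. Alkali was 0.28 ± 0.09 in controls, where all 5 libraries on alkali were higher, as for 86 genes (0.557%). Under oxalate it was -0.26 ± 0.09 (edgeR adjusted p = 0.085), and the oxalate groups overlapped. Without oxalate 32 it was -0.31 (edgeR adjusted p = 0.0323).

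Values of fat, urothelial and B cell genes depended on single libraries. The 8 adipose and adrenal genes tested had a median interaction of 5.24, with 4 higher at an unadjusted p under 0.05. This median was -0.03 without the 6 libraries with Adipoq, -0.05 without oxalate on alkali 33 and 2.45 without control 26. In oxalate on alkali 33 Adipoq was at 35.4 CPM and Ucp1 at 127 CPM, and in control 26 they were at 29.7 and 297 CPM. The urothelium list had a median of 0.47, which became -0.62 without oxalate on alkali 33 and -0.56 without control 26. With every library kept, it was -1.28 in limma voom, -1.28 with weights per group and -1.10 with weights per sample. B and plasma cell genes had a median of 0.59, which became -0.01 without oxalate on alkali 33.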

How the data were processed

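Libraries were prepared with a stranded poly(A) TruSeq kit, per the labels' protocols. Raw gene counts were deposited, which the authors made with bcl2fastq 2.19, Trimmomatic, STAR 2.7.1 and featureCounts and tested with edgeR, per the submitters' processing notes. These notes name GRCh38.p5, a human build, while the identifiers belong to mouse, and this could not be resolved. Of 25700 identifiers, 25664 matched GENCODE M21 (GRCm38), which gave symbols and coordinates; the other 36 held at most 0.0226% of a library's counts.

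Genes were kept by filterByExpr at a minimum count of 10, leaving 15430, with 99.93% or more of every library's counts. After TMM scaling, 1 model of 4 group means over 20 libraries was fitted by edgeR 4.0.16 (R 4.3.3) with the robust quasi-likelihood method. Intervals are 95% from the fitted SE, which is the log2 difference over the square root of F. CPM values are TMM-scaled. Alternatives were other scalings and filters, DESeq2 1.42.0, limma 3.58.1 voom with 3 weightings, leaving out libraries with Adipoq above 1 CPM, and leaving out each library. The code was tested on simulated data.

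Named genes were up to 12 called genes per direction or, with none called, the 6 of smallest p per direction with a mean log2 CPM of at least 1, a panel of 26 genes, and up to 4 members of smallest p per list. The members and lists were chosen with earlier results of these data known. The 38 lists cover acid-base, nephron segment, immune, stress and metabolic genes and markers of other cell types, and some genes sit on several. Some genes that this rule names are not reported here.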

Additional observations from a re-analysis of the deposited data

Results flagged for a closer look

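Among the groups of 5 libraries of the 38 genes, 5 of 152 held a library whose gap to its nearest neighbour exceeded Dixon's 95% limit of 0.71 of the group's range. Chance gives about 1 such flag in 20 groups. Havcr1 was at 137.5 CPM in untreated oxalate library 12, and the next library was at 36.81. Ccl2 was at 3.778 CPM in untreated control library 19, above the next at 0.6773. Aldh1a1 was at 5.598 CPM in untreated control library 35, below the next at 7.377. Glud1 was at 372.9 CPM in oxalate library on alkali 2, above the next at 285.2. Slc9a3 was at 127.8 CPM in control library on alkali 27, below the next at 153.2.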

How the results depend on the processing

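The interaction count of 0 was 26 with DESeq2, 1 with voom weights per sample, 1 without the libraries with Adipoq and 0 with the other settings that kept every library; leaving out single libraries gave 0 to 3. The 1429 genes at an unadjusted p under 0.05 were 1112 to 1967 with single libraries left out. The 630 calls for alkali in oxalate were 1203 with DESeq2, 42 with voom weights per group and 1263 without the libraries with Adipoq, and 185 to 1160 with single libraries left out. The 0 calls for alkali in control were 3 with DESeq2 and 0 to 1 with single libraries left out. Of 1140 values (38 genes under 30 settings), 1105 kept their sign and their side of the threshold, 18 passed it and 17 changed sign. All sign changes were of Glud1 (0.14 without the libraries with Adipoq, -0.134 to 0.0232 with single libraries left out), Umod (0.11, and -0.0770 to 0.0784) and Slc26a4 (-0.00666 to 0.178 with single libraries left out). The cause was not tested. Total-count scaling moved the median interaction of all genes from 0.006 to -0.085. No paired analysis was possible because the groups share no replicate number. With 5 libraries per group, the median 95% interval of 0.416 to either side limits what an interaction test can show.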

Other observations

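Regulators of blood pressure and of hormone response gave mixed values. Agtr1a, the angiotensin receptor, had an interaction of 0.34 ± 0.11, Ren1, renin, 0.88 ± 0.29, Mas1, a receptor of angiotensin fragments, 1.04 ± 0.44, and Anpep, a peptidase of the brush border, -0.41 ± 0.19. These were the 3 higher and the 1 lower of the 11 renin-angiotensin genes at an unadjusted p under 0.05. The median of the 11 was 0.02, -0.09 with total-count scaling and -0.08 to 0.10 with single libraries left out. Glucocorticoid response genes had a median of -0.58 (-0.37 without control on alkali 1 and -0.38 without oxalate 12), with 2 of 13 lower at an unadjusted p under 0.05: Tsc22d3 (-0.68 ± 0.24), the leucine zipper GILZ, and Sgk1 (-0.82 ± 0.28), a kinase that raises sodium uptake. Of the 19 circadian clock genes 1 had such a p, Bhlhe40 (-0.82 ± 0.36), a repressor of the clock, and their median of -0.04 changed sign under 10 settings.

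Stress and growth lists had 1 to 3 members each at that p. These made up 8.7% of the oxidative stress list, 16.7% of the integrated stress list and 3.57% of the cell cycle list, against 9.26% over all genes. Oxidative stress response genes had a median of -0.05 (-0.15 to -0.02 with single libraries left out; 2 of 23 lower at that p, one of them Nqo1 at -0.42 ± 0.16), integrated stress response genes -0.08 (3 of 18 lower, with a median of 0.02 at a minimum count of 50 and -0.21 to -0.02 with single libraries left out) and cell cycle genes -0.44 (1 of 28 lower, -0.28 without oxalate 40 and -0.70 without oxalate on alkali 33). Cholesterol and lipid synthesis genes had a median of 0.09 (2 of 30 higher, with a median of -0.02 under voom weights per sample and -0.03 to 0.14 with single libraries left out), and the higher pair, Acaca and Fasn, are genes that fat cells also express: Acaca was at 131 CPM in control 26 and 109 CPM in oxalate on alkali 33, the 2 libraries with the most Adipoq, and at 13.8 to 24.3 CPM in the other 18. Glycolysis and gluconeogenesis genes had a median of 0.10 (1 of 27 higher and 4 lower, with -0.02 under voom weights per sample and 0.04 to 0.16 with single libraries left out), male-biased kidney genes 0.21 (0.02 to 0.36), red blood cell genes -0.22 (-0.42 to 0.07) and the 4 skeletal muscle genes tested 0.13 (0.04 to 0.29), with the ranges over single libraries left out.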
